A study of Homo sapiens with 5 samples.

Results

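The Polycomb complex genes are 10 genes that encode subunits of the Polycomb repressive complexes PRC1 and PRC2, out of 26364 genes listed in the table of normalized counts. They were picked by symbol, by a rule that uses no measured values, and all 10 are listed. Earlier results of these data were known when they were chosen. EZH1, EZH2, EED, SUZ12, RBBP4 and RBBP7 form the core of PRC2, JARID2 is one of its accessory subunits, and RING1, RNF2 and BMI1 belong to the core of PRC1. Messenger RNA was sequenced from growing IMR-90 cells, a line of normal human lung fibroblasts, 24 hr after transfection. Ctr-KD cells received the control siRNA Ctr (2 libraries), and NSD2-KD cells received NSD2-1, NSD2-2 or NSD2-3, a different siRNA in each of 3 libraries. Each siRNA was therefore seen once, and siRNA and replicate cannot be told apart.

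PRC2 methylates lysine 27 of histone H3, with EZH2 or EZH1 as the catalytic subunit, and this mark goes with repressed genes. PRC1 adds ubiquitin to lysine 119 of histone H2A through RING1 or RNF2, and its CBX subunits bind the PRC2 mark. EZH2 is known to be abundant in dividing cells and EZH1 in resting ones, and in fibroblasts both complexes are known to hold the CDKN2A locus in check. NSD2 methylates lysine 36 of the same histone, and methylated lysine 36 hinders PRC2 on that tail. The comparison asks how the mRNAs of the Polycomb machinery stood a day after NSD2 was depleted.

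The counts over all genes summed to between 2473691 and 2845063 per library, in which a read that lies on overlapping genes can be counted more than once, and 3 reads correspond to between 2.76 and 3.28 normalized counts. NSD2, listed as WHSC1, had 463 and 443 normalized counts in Ctr-KD cells and 90.2, 81.9 and 87.9 in NSD2-KD cells, so that the knockdown was present with each siRNA (adjusted p = 0.000464 from limma). All 9 fibroblast markers were tested and none passed at an unadjusted p under 0.05. Of 9 markers of epithelial, endothelial, immune and red cells, 8 were under the filter on low counts, with KRT5, SFTPC, PECAM1, CDH5 and PTPRC at 0 in every library. The exception was CD68, a lysosomal gene that fibroblasts also express. Counts of the pair of Ctr-KD libraries were almost as alike as sampling allows (chi-square over degrees of freedom 1.05), so the p-values may measure technical spread on the Ctr-KD side. The same measure was 3.87 to 5.08 between a Ctr-KD and an NSD2-KD library and 5.05 to 5.29 between NSD2-KD libraries. The NSD2-KD libraries were thus no more like each other than like the Ctr-KD libraries.

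No Polycomb complex gene passed the test. Of the 10, 9 had a mean normalized count of at least 10 and were tested with limma on log2(normalized count + 1), and 0 of them had an adjusted p under 0.05. Among all 11313 tested genes, 0.053% were called lower and 0.0354% higher. On the recovered reads, edgeR also called 0 of the 9, where it called 0.0972% of all tested genes lower. DESeq2 called 0 as well but gave no adjusted p to EED. Of the 9339 genes that DESeq2 gave an adjusted p, it called 0.471% lower. At an unadjusted p under 0.05, limma had 2 members lower (EZH2 and RBBP7), where 4.99% of all tested genes were lower, and 1 member higher (JARID2), where 4.19% were higher. At an unadjusted p under 0.05 in either direction, DESeq2 had 1 member, where it had 4.68% of all tested genes, and edgeR had 3, where it had 9.24%. The libraries of both groups did not overlap for 5 members. EZH2, SUZ12 and RBBP7 were lower in every NSD2-KD library than in both Ctr-KD libraries, which held for 13.9% of all tested genes, and EED and JARID2 were higher in every one, which held for 13.8%. The median log2 difference of the 9 members was -0.15, beside -0.0089 for all tested genes.

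**Figure D1:**
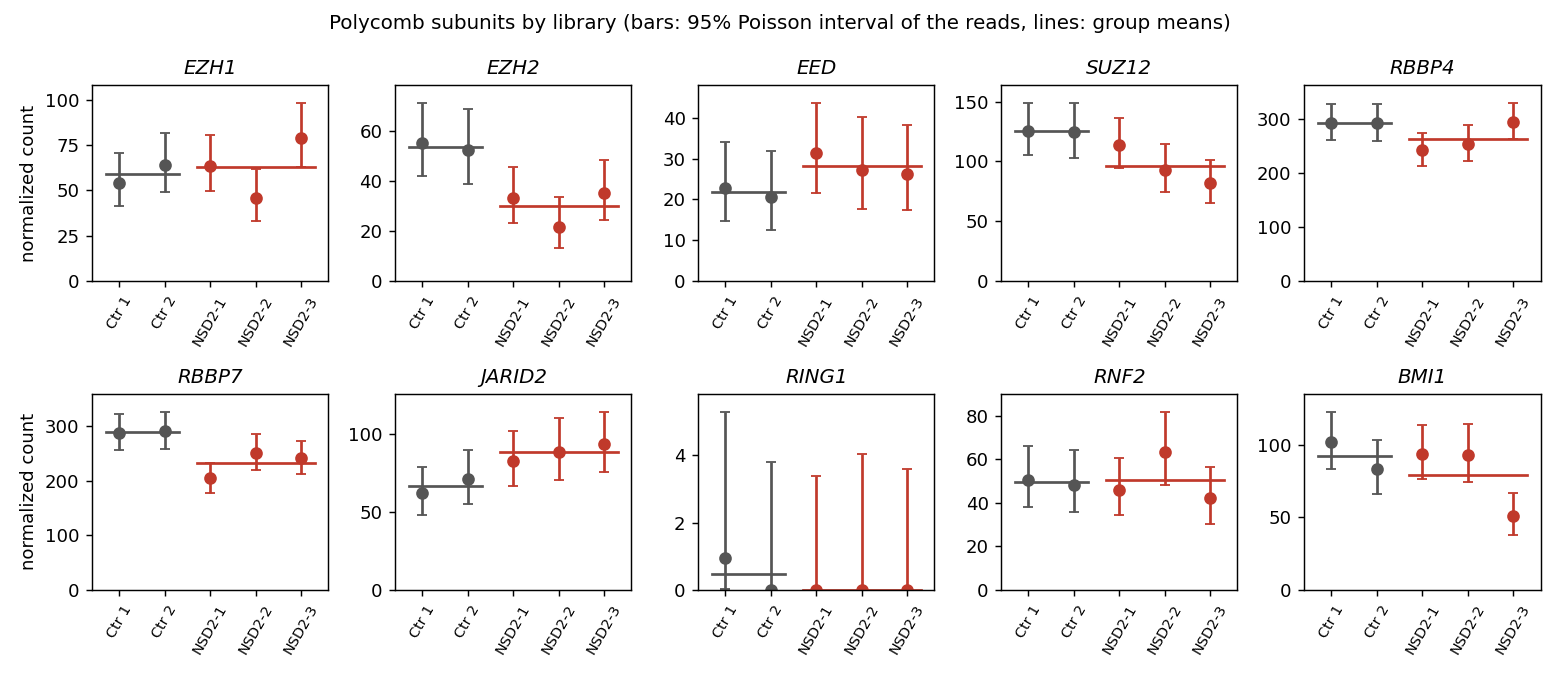
Normalized counts (y axes, each starting at 0) of the 10 Polycomb complex genes in the 2 Ctr-KD (grey) and 3 NSD2-KD (red) libraries on the x axes, with 95% Poisson intervals of the reads as bars and group means as lines. EZH2, SUZ12 and RBBP7 lie lower in all 3 NSD2-KD libraries, EED and JARID2 lie higher, and RING1 is at or near 0 throughout.

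EZH2, the main catalytic subunit of PRC2 in dividing cells, differed most. It lies on the minus strand of chromosome 7 of GRCh37, between bases 148504349 and 148581413. Ctr-KD cells had 55.3 and 52.5 normalized counts of it, against 33.1, 21.8 and 35.1 with NSD2-1, NSD2-2 and NSD2-3. All 3 NSD2-KD libraries were below both Ctr-KD libraries, and the NSD2-2 library was the lowest. The group values were 53.9 ± 1.97 (SD, n = 2) and 30.0 ± 7.17 (SD, n = 3), so that 55.8% of the Ctr-KD mean was left. The log2 difference was -0.85 (95% interval from -1.43 to -0.27, unadjusted p = 0.00933, adjusted p = 0.343 from limma). The adjusted p was 0.622 with DESeq2 and 0.270 with edgeR. Only 36, 20 and 36 reads lay behind the NSD2-KD values, and the 95% Poisson interval of the NSD2-2 value ran from 13.3 to 33.7 normalized counts, which is counting error only. EZH2 was one of the genes that the study names as downregulated and followed up after the knockdown, so its direction here is not independent evidence. The study's own DESeq2 comparison called more genes lower than DESeq2 did here, and its threshold is not given in the sources used here. Apart from these libraries, the study reports reduced EZH2 mRNA by qRT-PCR at a later time in NSD2-KD cells. It also reports less histone acetylation at the EZH2 promoter in NSD2-KD cells.

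Markers of proliferating cells moved the same way as EZH2. Of 10 such genes (MKI67, TOP2A, PCNA, MCM2, MCM3, MCM5, CCNA2, CCNB1, CDK1 and AURKB), 10 had log2 differences below 0, 9 at an unadjusted p under 0.05, with a median of -1.09. Among all tested genes, limma had 4.99% lower at an unadjusted p under 0.05. None of the 10 passed the adjustment in limma, 4 did in DESeq2 and 1 in edgeR. After adjustment, DESeq2 called lower 0.471% of the genes it gave an adjusted p, and edgeR 0.0972% of all tested genes. The study names MCM3, CCNA2 and AURKB as reduced after the knockdown, so the direction of the markers is not independent evidence. The values of the 10 markers summed to 2942 and 3086 normalized counts in Ctr-KD cells and to 1677, 1020 and 1335 with NSD2-1, NSD2-2 and NSD2-3. The sum and EZH2 were both lowest in the NSD2-2 library, as were 8 of the 10 markers, but the most abundant of them, MKI67 (481, 217 and 110 in NSD2-KD cells) and TOP2A (419, 274 and 221), were lowest with NSD2-3. The part of these cells in the EZH2 values was not tested, and in bulk libraries fewer cells that express a gene and less of its RNA per cell cannot be told apart.

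The genes whose profile over the 5 libraries lay closest to that of EZH2 were KIF22, IQGAP3, TOPBP1, PRC1 and ARHGAP11A, among the 7586 genes that averaged 50 normalized counts or more. Closeness was the root mean square distance of the log2 values relative to the Ctr-KD mean, and it ran from 0.038 for KIF22, a kinesin, to 0.080 for ARHGAP11A. KIF22 had 133 and 120 normalized counts in Ctr-KD cells and 81.0, 53.5 and 81.0 in NSD2-KD cells. The gene symbol PRC1 stands for a microtubule-bundling protein of cytokinesis and not for the Polycomb complex. It had 371 and 384 normalized counts in Ctr-KD cells and 237, 157 and 275 in NSD2-KD cells. Since the genes were picked for their closeness to EZH2, their order over the siRNAs was fixed by the choice.

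EZH1, the other catalytic subunit, overlapped between the groups. It lies on the minus strand of chromosome 17 between bases 40852293 and 40897067. Ctr-KD cells had 54.3 and 63.8 normalized counts of it and NSD2-KD cells 63.5, 45.9 and 79.1, with the lowest and the highest value both among the NSD2-KD libraries. The log2 difference was 0.06 (95% interval from -0.50 to 0.62, adjusted p = 0.963 from limma), an interval that holds a change of either direction of some size.

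Set against each other within each library, which removes the scaling of libraries, EZH2 lay lower relative to EZH1 with every siRNA. The log2 ratio of EZH2 to EZH1 was 0.025 and -0.28 in Ctr-KD cells and -0.92, -1.04 and -1.15 with NSD2-1, NSD2-2 and NSD2-3. The mean ratio differed by -0.91 on the log2 scale, and no NSD2-KD library reached the range of the Ctr-KD libraries. The exact two-sided permutation test gave p = 0.1, which is the smallest p that 2 against 3 libraries allow, so the test could not pass 0.05. As a share of the reads of both genes, EZH2 made up 50.4% (95% Wilson interval from 41.4% to 59.4%) and 45.1% (36.3% to 54.3%) in Ctr-KD cells. It made up 34.3% (25.9% to 43.8%), 32.3% (21.95% to 44.6%) and 30.8% (23.1% to 39.6%) with NSD2-1, NSD2-2 and NSD2-3. The intervals of the Ctr-KD and NSD2-KD libraries overlap except between the first Ctr-KD library and NSD2-3, and they cover counting error only.

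**Figure D2:**
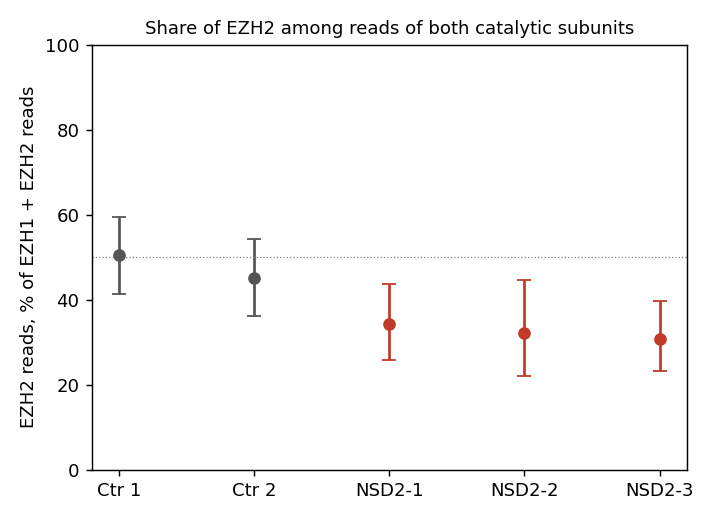
Reads of EZH2 as a percentage of the reads of EZH1 and EZH2 together (y axis from 0 to 100) in each library (x axis), with 95% Wilson intervals as bars. The Ctr-KD libraries (grey) sit at 50.4% and 45.1% and the NSD2-KD libraries (red) between 30.8% and 34.3%, and the dotted line marks equal numbers of reads.

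The promoters of both catalytic subunits are shown because EZH2 and EZH1 stood apart in this comparison. The windows run from 250 bases before to 50 bases after the start of a RefSeq transcript and were read in the direction of transcription. The EZH2 window is on the minus strand at chr7:148884242-148884541 of GRCh38.p14, and the same bases lie at chr7:148581334-148581633 of GRCh37. The EZH1 window is on the minus strand at chr17:42744991-42745290 of GRCh38.p14 and at chr17:40897009-40897308 of GRCh37. Capitals mark the words TTTCCCGC, TTTCGCGC, TTTGCCGC or TTTGGCGC, which are spellings of the E2F binding site, and CCAAT, the NF-Y box, on either strand. TTTGAA, the CHR element of many cell cycle promoters, was also searched and is absent from both windows.
EZH2: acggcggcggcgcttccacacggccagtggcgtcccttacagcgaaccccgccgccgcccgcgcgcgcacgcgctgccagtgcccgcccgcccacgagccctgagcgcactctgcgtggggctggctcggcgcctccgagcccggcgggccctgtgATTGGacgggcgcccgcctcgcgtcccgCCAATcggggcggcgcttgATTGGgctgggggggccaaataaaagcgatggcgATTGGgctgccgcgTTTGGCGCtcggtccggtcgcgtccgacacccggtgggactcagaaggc
EZH1: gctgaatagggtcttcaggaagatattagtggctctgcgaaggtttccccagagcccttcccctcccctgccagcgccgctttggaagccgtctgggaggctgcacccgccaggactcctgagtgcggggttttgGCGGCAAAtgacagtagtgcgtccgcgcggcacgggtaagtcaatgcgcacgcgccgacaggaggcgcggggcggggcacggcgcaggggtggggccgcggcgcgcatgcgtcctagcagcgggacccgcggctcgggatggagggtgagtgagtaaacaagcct

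The EZH2 window holds 1 E2F word, which begins at base 2 of the transcript, and 4 CCAAT boxes, the nearest of them 13 bases before the start. A further window of EZH2, at another start, holds none of these words. The EZH1 window holds 1 E2F word, on the other strand and 115 bases before the start, and no CCAAT box. Over all 35116 RefSeq windows of this length, 3.31% hold an E2F word, 34.6% a CCAAT box and 15.2% the CHR word. The 10 Polycomb complex genes have 15 windows. An E2F word occurs in 3 of them (EZH1, EZH2 and SUZ12), a CCAAT box in 8, which belong to 6 genes, and the CHR word in 1 (SUZ12). The windows of RBBP4 overlap and share a CCAAT box, so they are not separate matches. These are matches of letters and not measured binding sites.

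The other core subunits of PRC2 spread to both sides. SUZ12, the scaffold that holds the complex together, had 125.8 and 124.5 normalized counts in Ctr-KD cells and 114.1, 92.8 and 82.0 in NSD2-KD cells. Every NSD2-KD library was below both Ctr-KD libraries, by little with NSD2-1 and most with NSD2-3. Its log2 difference was -0.39 (95% interval from -0.78 to 0.0099, unadjusted p = 0.0547, adjusted p = 0.557 from limma). SUZ12P1, a pseudogene copy of SUZ12, had at most 11.3 normalized counts, and the SUZ12 values are uncertain to the extent that reads shared with it were not uniquely mapped.

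EED, the subunit that reads the methylated lysine and stimulates the enzyme, was the least abundant tested member by normalized count. Its values were 22.9 and 20.6 in Ctr-KD cells and 31.3, 27.3 and 26.4 in NSD2-KD cells, higher in each NSD2-KD library. The log2 difference was 0.37 (95% interval from -0.16 to 0.89, adjusted p = 0.690 from limma) and rested on 20 to 34 reads per library. Within libraries, the log2 ratio of EZH2 to EED was 1.24 and 1.31 in Ctr-KD cells and 0.080, -0.31 and 0.40 in NSD2-KD cells (difference of -1.22, exact permutation p = 0.1, 0.2 after adjustment over 4 ratios). By contrast, the log2 ratio of EZH2 to SUZ12 in the NSD2-3 library, -1.20, lay between the Ctr-KD values of -1.17 and -1.23. The difference of that ratio between the groups was -0.46 (exact permutation p = 0.3).

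RBBP4 and RBBP7 are closely related histone-binding proteins that PRC2 shares with several other chromatin complexes. RBBP7 had 287.7 and 291.1 normalized counts in Ctr-KD cells and 204, 251.2 and 241 in NSD2-KD cells, all 3 lower. Its log2 difference was -0.32 (95% interval from -0.62 to -0.027, unadjusted p = 0.0358, adjusted p = 0.501 from limma). RBBP4 had 293.4 and 293.2 in Ctr-KD cells and 243, 255 and 296 in NSD2-KD cells. The NSD2-3 library was above both Ctr-KD libraries and the others were below them, and the log2 difference was -0.15 (95% interval from -0.44 to 0.13, adjusted p = 0.770 from limma). The log2 ratio of RBBP7 to RBBP4 differed by -0.17 between the groups (exact permutation p = 0.3, also 0.3 after adjustment over the 4 ratios). Exons of TXLNG overlap those of RBBP7 and exons of SYNC those of RBBP4, in both cases on the other strand, and the strand setting of the counting is not given in the sources used here.

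JARID2, the accessory subunit that helps to bring PRC2 to chromatin, was the member with the largest positive difference. It lies on the plus strand of chromosome 6 between bases 15246300 and 15522273. Ctr-KD cells had 61.9 and 71.0 normalized counts of it and NSD2-KD cells 82.8, 88.5 and 93.7. All 3 NSD2-KD libraries were above both Ctr-KD libraries and lay close together, at 125% to 141% of the level in Ctr-KD cells. The log2 difference was 0.41 (95% interval from 0.038 to 0.78, unadjusted p = 0.0344, adjusted p = 0.494 from limma). The antisense gene JARID2-AS1 had at most 1.95 normalized counts in any library.

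**Figure D3:**
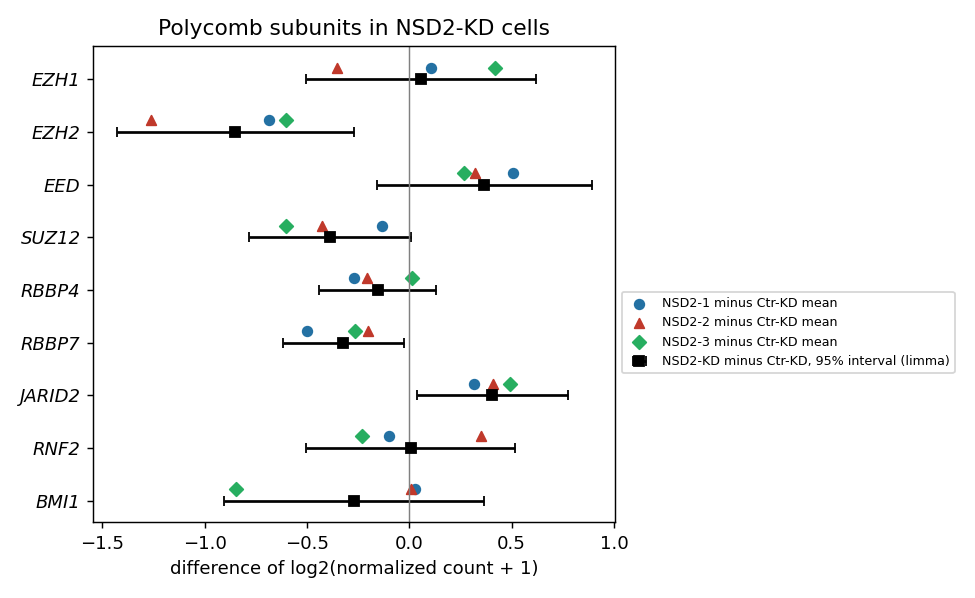
Differences of log2(normalized count + 1) from Ctr-KD cells (x axis) for the 9 tested Polycomb complex genes (y axis). Black squares with bars are the limma difference of NSD2-KD and Ctr-KD cells with its 95% interval, and coloured symbols are the single siRNA libraries against the Ctr-KD mean. The intervals of EZH2, RBBP7 and JARID2 do not reach 0, and NSD2-3 stands apart for BMI1.

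Of the PRC1 core, RNF2, the main ubiquitin ligase of the complex, had 50.5 and 48.4 normalized counts in Ctr-KD cells and 46.0, 63.4 and 42.0 in NSD2-KD cells. The NSD2-2 library was above and the others below the Ctr-KD libraries, so the siRNAs did not share a direction. The log2 difference was 0.0071 (95% interval from -0.50 to 0.52, adjusted p = 0.996 from limma).

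BMI1, the partner that activates the ligase in canonical PRC1, had 101.9 and 83.3 normalized counts in Ctr-KD cells and 93.9, 92.8 and 50.8 with NSD2-1, NSD2-2 and NSD2-3. The values with NSD2-1 and NSD2-2 lay between the Ctr-KD values, and NSD2-3 was at 54.8% of the Ctr-KD mean. The log2 difference of -0.27 (95% interval from -0.91 to 0.36, adjusted p = 0.828 from limma) rested on that library, and without it the difference was 0.018. Exons of the readthrough gene COMMD3-BMI1 overlap those of BMI1 on the same strand, and reads on exons shared by a readthrough gene and its parts appear to be counted for each, so the values of both are not independent. COMMD3-BMI1 had 117 and 115 normalized counts in Ctr-KD cells and 119, 131 and 93.7 in NSD2-KD cells.

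RING1, the second ubiquitin ligase, could not be measured. It had 1 read in the first Ctr-KD library and 0 in the other 4, and a count of 0 allows up to 3 reads. RING1 lies on chromosome 6 from 33176277 to 33180499 of GRCh37, inside the major histocompatibility region, and nearly all genes around it had few or no reads. Of 161 protein-coding genes that start from 28.5 to 33.5 Mb, 93 had 0 reads in all libraries, and 6 (3.73%) had a mean normalized count of at least 10. From 23.5 to 28.5 Mb, 48.9% of 47 genes reached that mean, and from 33.5 to 38.5 Mb, 62.7% of 59 genes did. The stretch was delimited after its values were seen. RPS18, a ribosomal protein gene that every cell uses, starts 0.0636 Mb from RING1 and had a mean of 1.01 normalized counts. DAXX, a histone chaperone gene nearby, had 2.14, and BAK1, just outside the stretch, had 68.9. Within the stretch, HLA-C had a mean of 722 and HLA-B one of 325. The low value is thus shared by most genes of the region, though not by all, and says nothing of RING1 in these cells. PHF1, an accessory subunit of PRC2 that lies in the same stretch, had a mean of 6.39 normalized counts and was not tested.

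**Figure D4:**
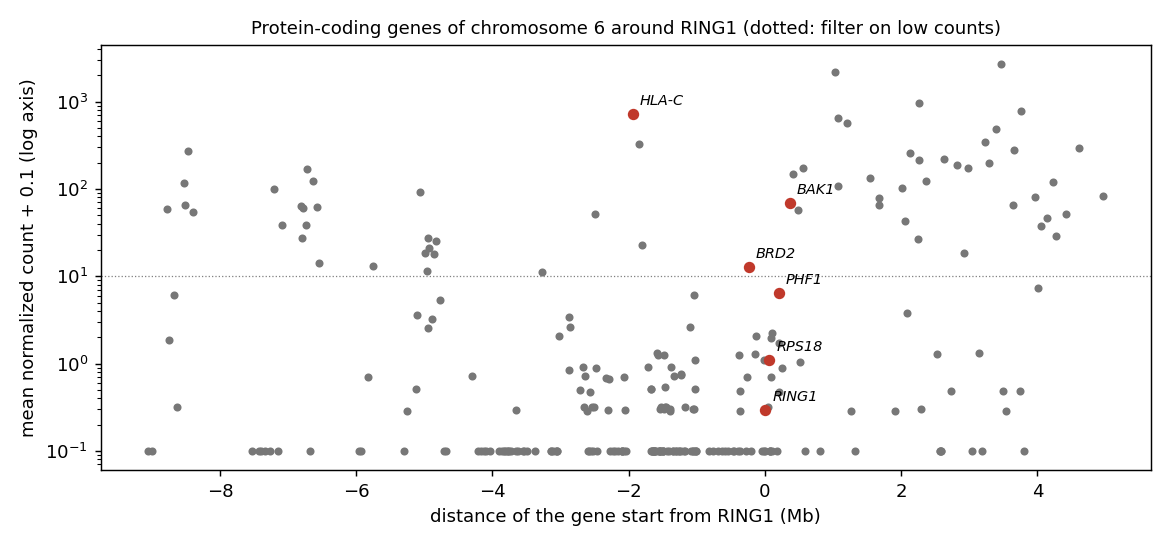
Mean normalized count over the 5 libraries plus 0.1 (y axis, log scale) of protein-coding genes of chromosome 6 against the distance of their start from that of RING1 in Mb (x axis), with named genes in red and the filter on low counts as a dotted line. Genes from about 4.5 Mb before RING1 to just past PHF1 lie mostly at 0 or below the filter, and genes from BAK1 on rise above it again.

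The members can be ranked among themselves per length of the main annotated transcript. In Ctr-KD cells RBBP7 was highest, with 126.9 ± 1.07 (SD, n = 2) normalized counts per kb, followed by RBBP4 (37.2 ± 0.019), SUZ12 (27.8 ± 0.20), BMI1 (26.2 ± 3.72), EZH2 (20.3 ± 0.74), RNF2 (14.5 ± 0.44), EZH1 (12.7 ± 1.45), JARID2 (11.1 ± 1.07) and EED (10.4 ± 0.77). SUZ12 and BMI1 did not differ beyond their spread, nor did EZH1 and JARID2 or JARID2 and EED. RBBP4 depends on the transcript chosen, because its main transcript is 7883 bases long and that of RBBP7 is 2281 bases. In NSD2-KD cells, EZH2 was at 11.3 ± 2.70 (SD, n = 3) per kb and EZH1 at 13.6 ± 3.58, JARID2 at 14.7 ± 0.91 and EED at 13.6 ± 1.25. By these means EZH2 ranked above RNF2, EZH1, JARID2 and EED per length in Ctr-KD cells and below them in NSD2-KD cells, where RNF2 was at 14.8 ± 3.33. The NSD2-KD values of EZH2 per kb, 12.5, 8.23 and 13.2, overlapped those of RNF2, EZH1 and EED and lay below the lowest of JARID2, 13.8.

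Beyond the 10 subunits, 48 other Polycomb genes were taken from a list of further PRC2 and PRC1 subunits, the PR-DUB complex that removes ubiquitin from histone H2A, and the enzymes that demethylate lysine 27. Of these, 43 were tested and 0 passed the adjustment in limma, DESeq2 or edgeR. DESeq2 gave no adjusted p to some of the genes with low counts among them. At an unadjusted p under 0.05, limma had 3 lower and 0 higher, where 4.99% and 4.19% of all tested genes were. Counted in either direction, DESeq2 had 3 (4.68% of all tested genes) and edgeR 4 (9.24%). The groups did not overlap for 9 lower genes (20.9%, against 13.9% of all tested genes) and 1 higher gene (PCGF1, against 13.8%). The median log2 difference was -0.10, with 32 genes below 0 and 11 above.

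The 3 genes at an unadjusted p under 0.05 were MTF2, PHF19 and LCOR, all from the list of PRC2 accessory genes. MTF2, which targets PRC2 to CpG islands, had 54.3 and 60.7 normalized counts in Ctr-KD cells and 34.0, 32.8 and 43.0 in NSD2-KD cells (log2 difference of -0.65, unadjusted p = 0.0138, adjusted p = 0.385 from limma). PHF19, a related protein that binds methylated lysine 36 of histone H3, had 159 and 180 in Ctr-KD cells and 104.9, 99.4 and 151 in NSD2-KD cells (log2 difference of -0.54, unadjusted p = 0.0262, adjusted p = 0.448). LCOR encodes a nuclear receptor corepressor, its locus also gives rise to a PRC2 cofactor, and the counts do not separate the products. It had 89.6 and 70.0 in Ctr-KD cells and 60.7, 44.8 and 37.1 in NSD2-KD cells (log2 difference of -0.75, unadjusted p = 0.0141, adjusted p = 0.386). For all 3 genes each NSD2-KD library was below both Ctr-KD libraries. Of the 8 other accessory genes listed, 5 were tested, all with log2 differences below 0. Of these, 4 were lower without overlap, which held for 13.9% of all tested genes. The fourth was C10orf12, which is part of the LCOR locus, at -0.28 (adjusted p = 0.765 from limma), so LCOR and C10orf12 are not separate loci. JARID2, the accessory subunit among the members, went the other way, with a log2 difference of 0.41.

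No gene of the other groups had an unadjusted p under 0.05 in limma. The 10 tested PR-DUB genes ranged from -0.17 to 0.061 in log2 difference, with a median of -0.050. Among them, FOXK2 was lower without overlap, where 13.9% of all tested genes were. The 11 genes of variant PRC1 ranged from -0.49 to 0.077, with a median of -0.22 and 9 below 0. Of these, KDM2B, E2F6 and DCAF7 were lower without overlap, where 13.9% of all tested genes were. The 5 CBX genes, whose proteins read the PRC2 mark, ranged from -0.69 to 0.20, and the 5 PCGF genes, relatives of BMI1, from -0.41 to 0.45. The 5 tested PHC and SCM genes ranged from -0.59 to 0.083, with a median of -0.17. Among them, SCML1 was lower without overlap, where 13.9% of all tested genes were. The demethylase genes KDM6A and KDM6B had log2 differences of -0.039 and 0.25.

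**Figure D5:**
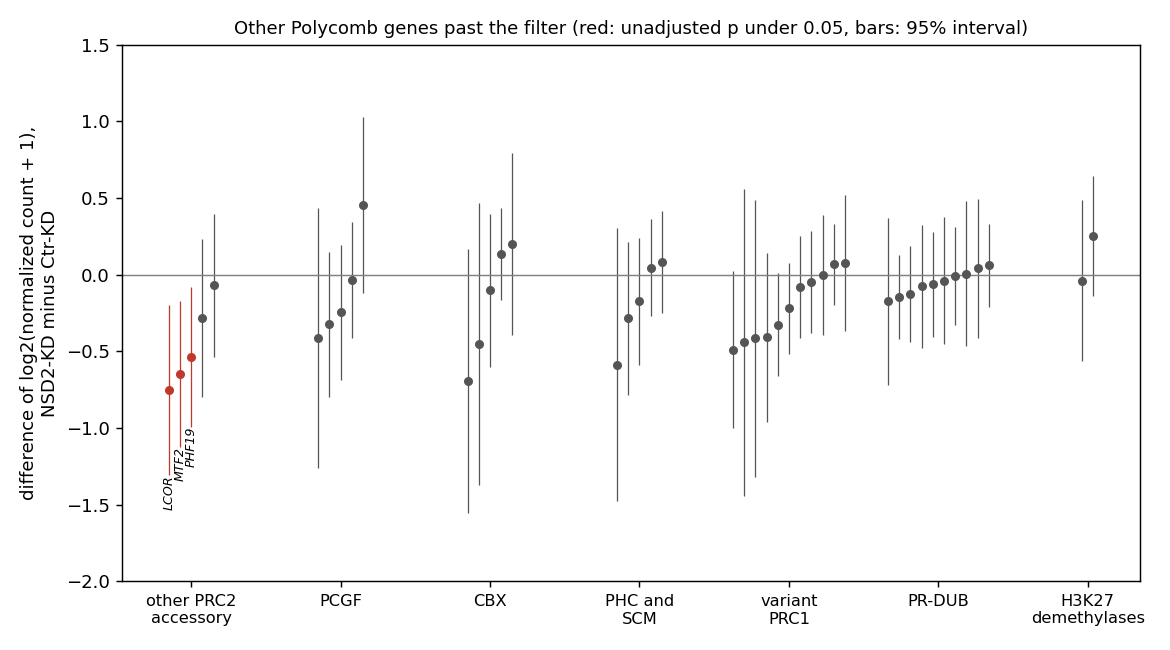
Differences of log2(normalized count + 1) between NSD2-KD and Ctr-KD cells (y axis) with 95% intervals from limma for the 43 other Polycomb genes that were tested, by group (x axis). LCOR, MTF2 and PHF19, in red, have an unadjusted p under 0.05, and the PR-DUB genes lie within -0.17 to 0.061.

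Classical targets of Polycomb repression were looked at from a list of 20 genes. Of 18 developmental transcription factors, such as PAX7, SOX1, GATA4 and OLIG2, 16 had 0 reads in every library, and PAX3 and PAX6 had 6 reads in all. A small rise from silence was not detectable at this depth. CDKN2A had 81.9 and 97.7 normalized counts in Ctr-KD cells and 93.9, 76.5 and 93.7 in NSD2-KD cells, with overlapping groups. Apart from these libraries, the study reports more CDKN2A (p16) mRNA by qRT-PCR at a later time in NSD2-KD cells. The neighbouring gene CDKN2B, which encodes the CDK inhibitor p15, had 33.3 and 43.2 in Ctr-KD cells and 47.8, 44.8 and 71.3 in NSD2-KD cells, higher in all 3 but furthest with NSD2-3 (log2 difference of 0.48, 95% interval from -0.098 to 1.06, adjusted p = 0.623 from limma). Of all tested genes, 13.8% were higher without overlap.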

How the data were processed

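The signal values deposited by the authors are normalized counts. Per the supporting procedures and the submitters' processing notes, reads were trimmed, mapped to hg19 with HISAT2, kept where uniquely mapped (SAMtools), counted per gene with featureCounts and compared with DESeq2. As the values show, the counts were divided by 1 factor per library. Such scaling hides a change shared by all genes, and the annotation is not given in the sources used here. All values (100% within 0.01 of a whole multiple of 1 read) gave back whole reads. The second deposited table, with the authors' own fold changes and p-values, was not used.

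Genes averaging at least 10 normalized counts were compared on log2(normalized count + 1) with limma 3.58.1 (trend, no covariates, two-sided, Benjamini-Hochberg over 11313 genes, threshold 0.05). The log2 scale with a pseudocount understates changes of low genes. edgeR 4.0.16 (quasi-likelihood, TMM) and DESeq2 1.42.0 were run on the recovered reads. The scripts were tested on simulated data. Gene positions, transcripts (MANE Select) and overlaps are from GENCODE v44 on GRCh37, the assembly of hg19, and promoters from RefSeq (GRCh38.p14), where all 10 members matched. Named genes are every member, NSD2, the proliferation markers, CDKN2A and CDKN2B, the 5 genes closest to EZH2, and other Polycomb genes with an unadjusted p under 0.05 and no overlap of groups. Genes named for other reasons are the chromosome 6 genes, COMMD3-BMI1, SUZ12P1, JARID2-AS1, C10orf12, PCGF1, KDM2B, E2F6, DCAF7, FOXK2, SCML1, KDM6A, KDM6B and marker genes. They were chosen after their values were seen or as list members. The ratios other than EZH2 to EZH1 were also chosen then. The members and lists were chosen with earlier results of these data known. Samples were grouped by their titles. The study's methods call them biological replicates, but no label says that they were separate cultures, so p-values measure the spread between these libraries.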

Additional observations from a re-analysis of the deposited data

How the results depend on the processing

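The count of called Polycomb complex genes stayed at 0 under all 14 alternatives: pseudocounts of 0.5 and 5, the filter dropped or set to 50, no trend in limma, scaling to total reads, edgeR, DESeq2, the replicate block and each library left out. The count of other Polycomb genes called also stayed at 0. Few of all tested genes were called in any setting, so counts of 0 lie near that share and say little of these genes. The count of all genes called was 10, and became 1 without the trend, 16 with edgeR, 58 with DESeq2 and 102 with the replicate block, while leaving out 1 library gave between 0 (without either Ctr-KD library) and 30. Without 1 Ctr-KD library the other is assumed to vary like the NSD2-KD libraries. The cause of these shifts was not tested. EZH2 kept its direction in 13 of 13 alternatives (-0.97 to -0.64), as did SUZ12, RBBP4, RBBP7, EED and JARID2 in theirs. With both Ctr-KD libraries kept, the adjusted p of EZH2 ran from 0.152 (limma with the replicate block) to 0.622 (DESeq2). EZH2 and EED have no value at a minimum of 50. EZH1 turned to -0.12 with the replicate block and without NSD2-KD replicate 3, and to -0.056 without Ctr-KD replicate 1, and ran up to 0.26 with 1 library left out. RNF2 turned to -0.024 without Ctr-KD replicate 2 and -0.17 without NSD2-KD replicate 2 (at most 0.13 with 1 left out), and BMI1 to 0.018 with the replicate block and without NSD2-KD replicate 3 (down to -0.42 with 1 left out). The ratio of EZH2 to EZH1 kept its direction, from -1.06 to -0.76 with a library left out. A shared replicate number does not show pairing (correlations of deviations of -0.015 and -0.027), and the block leaves NSD2-3 without a partner. EED and EZH2 rested on few reads.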
